A study of Homo sapiens with 6 samples.

Results

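The genes described here are 9 components of the tight junction, taken by name from the deposited gene table, which holds 58735 genes: the claudins CLDN1, CLDN2, CLDN3, CLDN4 and CLDN7, the occludin gene OCLN, the zonula occludens genes TJP1 and TJP3, and F11R, which encodes the junctional adhesion molecule JAM-A. They were measured by RNA sequencing in a human line derived from a colorectal cancer, SW480, whose genotype is labelled WT, with 3 libraries transfected with an siRNA against ITGB4 and 3 libraries transfected with a negative control siRNA. ITGB4 encodes integrin β4, a hemidesmosome subunit. The series calls the libraries of a group biological replicates, and the labels name 1 cell line and give no siRNA sequence, no second ITGB4 siRNA and no time after transfection. All 9 genes matched 1 row each.

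Tight junctions seal the space between neighbouring epithelial cells near the apical surface and limit the passage of ions, solutes and water. Claudins form the strands and set which ions pass, while occludin and its relatives join the strands, the junctional adhesion molecules bridge cells next to them, and the zonula occludens proteins tie these membrane proteins to actin. The colon surface is a comparatively tight epithelium, and changed claudin levels have been described in colorectal tumours.

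Summed over the genes in the table, the 6 libraries had 13715266 to 15496274 reads, recovered from the deposited FPKM (fragments per kilobase, corrected for library size). Reads not counted on a listed gene are not in these sums. ITGB4 had 41.1, 38.1 and 37.9 FPKM with ITGB4 siRNA, against 74.3, 63.8 and 69.8 FPKM with control siRNA, a difference of -43.7% with no overlap between the groups. Its limma adjusted p was 0.0148, and without the filter on low values, or without control siRNA replicate 3 or any 1 of the ITGB4 siRNA replicates, it lay between 0.0618 and 0.137. Of 9 colon epithelium markers, 6 had a mean of at least 1 FPKM, among them EPCAM, KRT8 and KRT18, while CEACAM5 was listed at 0 in every library and KRT20 did not exceed 0.107 FPKM. The summed level of the 6 endothelial markers was 0.889 to 1.27 FPKM with ITGB4 siRNA and 1.12 to 1.36 FPKM with control siRNA. The 6 fibroblast markers summed to 1.54 to 1.72 FPKM with ITGB4 siRNA and 1.52 to 2.24 FPKM with control siRNA. The 6 leukocyte markers summed to 2.19 to 2.79 FPKM with ITGB4 siRNA and 2.52 to 2.61 FPKM with control siRNA. The endothelial, fibroblast and leukocyte lists each had 1 marker with a mean of at least 1 FPKM. These were ESAM (0.726 to 1.18 FPKM over the 6 libraries), FBLN1 (1.05 to 1.40 FPKM) and CD74 (1.82 to 2.43 FPKM). The fibroblast marker COL1A1 had 0.407 to 0.805 FPKM. CDH5, KDR, COL1A2, COL3A1 and DCN were listed at 0 in every library.

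In limma and limma-voom, none of the 8 tested tight junction genes differed between ITGB4 siRNA and control siRNA libraries beyond the spread between replicates. CLDN2, the remaining gene of the 9, was not tested. Each gene was compared with limma, fitted to log2(FPKM + 1) over all 12871 genes with a mean of at least 1 FPKM, with Benjamini-Hochberg adjustment over all of them. The filter left 8 of the 9, all but CLDN2, and limma called 0 of these 8 at an adjusted p under 0.05, with 0 at an unadjusted p under 0.05 and 0 called by limma-voom on the recovered reads. Over all genes tested limma called 6, or 0.0466%, limma-voom 0.202%, and 5.83% had an unadjusted p under 0.05. The limma count varied when single libraries were left out. It was 0 without any 1 of the 3 ITGB4 siRNA replicates. Without control siRNA replicate 1, 2 or 3 it was 7, 6 and 3. Leaving out a library also leaves fewer replicates to test with. The groups overlapped for all 8 genes, where 11.1% of all genes tested had groups without overlap. Of the 8, 3 had a log2 fold change above 0 and 5 below it, with a median of -0.05 beside 0.00 over all genes tested.

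**Figure D1:**
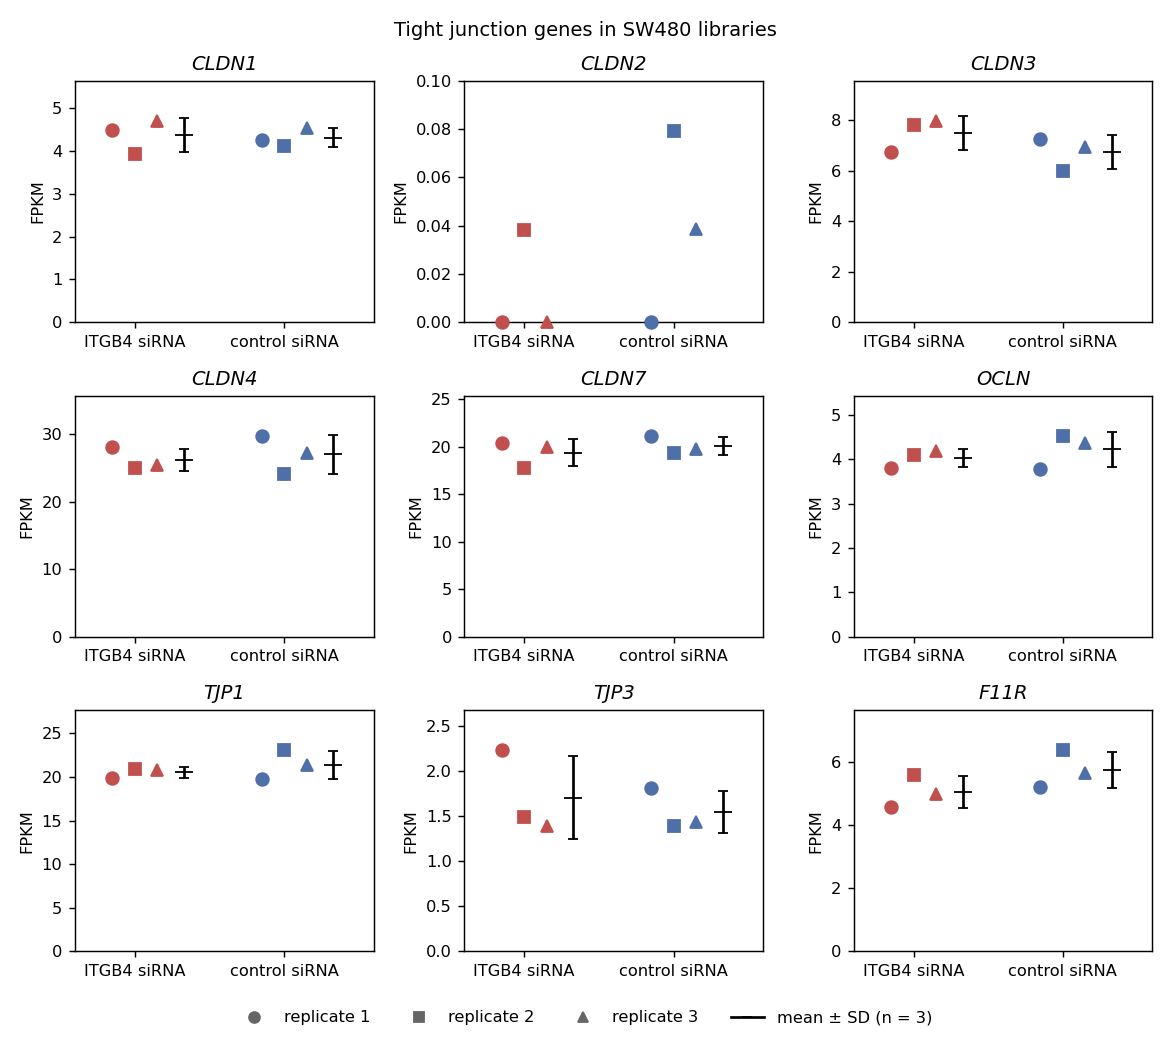
Deposited FPKM of each of the 9 genes, 1 point per library with the marker shape giving the replicate number, ITGB4 siRNA in red on the left and control siRNA in blue on the right, and black bars for the mean ± SD of 3 libraries (none drawn for CLDN2, which has at most 4 reads per library). Each axis starts at 0 and has its own range, and the points of both groups overlap in all 9 panels.

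The claudins spanned the whole range of levels. CLDN4 (ENSG00000189143; GRCh38 chromosome 7, 73799542 to 73832693, plus strand), a claudin of many epithelia that also serves as a receptor for Clostridium perfringens enterotoxin, was the most abundant of the 9 genes. It had 28.1, 25.02 and 25.4 FPKM with ITGB4 siRNA, against 29.7, 24.1 and 27.1 FPKM with control siRNA. The ITGB4 siRNA values lay inside the control range. The means were 26.2 ± 1.67 FPKM with ITGB4 siRNA and 26.97 ± 2.84 FPKM with control siRNA (SD, n = 3 each), and limma placed the log2 fold change at -0.04, between -0.24 and 0.16 at 95% confidence (adjusted p = 0.998).

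CLDN7 (ENSG00000181885; GRCh38 chromosome 17, 7259903 to 7263983, minus strand), a claudin of the lateral membrane that binds EPCAM, had 20.4, 17.7 and 19.9 FPKM with ITGB4 siRNA and 21.1, 19.3 and 19.8 FPKM with control siRNA. Replicate 2 of the ITGB4 siRNA group was the lowest of the 6 libraries and replicate 1 of the controls the highest. Limma placed the log2 fold change at -0.05, between -0.21 and 0.11 at 95% confidence (adjusted p = 0.998). EPCAM itself was at 97.4, 95.3 and 100.4 FPKM with ITGB4 siRNA and 94.8, 100.1 and 94.8 FPKM with control siRNA. ELP5, on the opposite strand, shares 38 bases with the CLDN7 interval and had 19.2 to 21.5 FPKM over the 6 libraries. AC003688.1, annotated on the same strand as CLDN7, shares 2187 bases with that interval and was listed at 0 in every library.

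CLDN3 (ENSG00000165215; GRCh38 chromosome 7, 73768997 to 73770270, minus strand), the second enterotoxin receptor, lies next to CLDN4 on chromosome 7 with 29271 bases between the 2 genes. It had 6.74, 7.81 and 7.96 FPKM with ITGB4 siRNA, against 7.27, 5.99 and 6.95 FPKM with control siRNA. It was 11.4% higher on average (log2 fold change 0.14, 95% interval -0.07 to 0.35, limma adjusted p = 0.986). Over all 6 libraries this was the highest log2 fold change of the 8 genes, but leaving out control siRNA replicate 2 gave 0.07. That of TJP3 was higher when ITGB4 siRNA replicate 2 or 3 was left out. ITGB4 siRNA replicates 2 and 3 exceeded every control library and replicate 1 did not. These values rest on 113 to 158 reads per library, for which counting alone gives an SD of 8.59%, close to the spread between replicates of 8.86% with ITGB4 siRNA and 9.93% with control siRNA.

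CLDN1 (ENSG00000163347; GRCh38 chromosome 3, 190305701 to 190322475, minus strand), a sealing claudin that has been described as a β-catenin target in colorectal cancer cells, had 4.49, 3.93 and 4.70 FPKM with ITGB4 siRNA and 4.26, 4.13 and 4.55 FPKM with control siRNA. The lowest and the highest value both came from the ITGB4 siRNA group. Its means were 4.37 ± 0.397 FPKM with ITGB4 siRNA and 4.31 ± 0.216 FPKM with control siRNA (SD, n = 3 each), and limma estimated 0.01 for the log2 ratio, between -0.16 and 0.19 at 95% confidence (adjusted p = 0.998). The sign turned without ITGB4 siRNA replicate 1, without ITGB4 siRNA replicate 3 or without control siRNA replicate 2.

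CLDN2 (ENSG00000165376; GRCh38 chromosome X, 106900164 to 106930861, plus strand) forms cation and water pores and is typical of leaky epithelia. It was read 0, 2 and 0 times in the ITGB4 siRNA libraries and 0, 4 and 2 times in the control libraries, which is 0 to 0.0792 FPKM. A count of 3 reads would be 0.0565 to 0.0635 FPKM, so 1 library exceeded that floor. Summed over 3 libraries the reads were 2 with ITGB4 siRNA (exact 95% Poisson interval 0.242 to 7.22) and 6 with control siRNA (2.20 to 13.1), intervals that cover counting error only. The intervals overlapped, so no difference was resolved at these counts. The whole of CLDN2 also lies opposite MORC4, a gene on the other strand at 6.28 to 8.38 FPKM, and the labels do not say whether the libraries keep the strand, so these few reads cannot be assigned with certainty.

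The promoter windows of the 2 most abundant claudins and of the nearly unread CLDN2 are shown because the 3 genes stand at opposite ends of the range of levels. CLDN7 and CLDN2 have 2 windows each in the table, and the CLDN7 window shown was chosen for its matches. Each is RefSeq's window of 250 bases before to 50 after an annotated start (GRCh38.p14), and capitals mark CAGGTG or its reverse complement CACCTG, the E-box form that the repressors SNAI1, SNAI2 and ZEB1 are known to bind.
CLDN7, chr17:7262429-7262728, minus strand: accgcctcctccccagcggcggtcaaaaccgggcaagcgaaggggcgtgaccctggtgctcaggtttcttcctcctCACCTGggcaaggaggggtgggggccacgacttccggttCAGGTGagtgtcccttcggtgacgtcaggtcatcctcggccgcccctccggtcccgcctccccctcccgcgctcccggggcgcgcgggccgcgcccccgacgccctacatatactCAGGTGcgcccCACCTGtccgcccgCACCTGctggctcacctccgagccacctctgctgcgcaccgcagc
CLDN4, chr7:73830746-73831045, plus strand: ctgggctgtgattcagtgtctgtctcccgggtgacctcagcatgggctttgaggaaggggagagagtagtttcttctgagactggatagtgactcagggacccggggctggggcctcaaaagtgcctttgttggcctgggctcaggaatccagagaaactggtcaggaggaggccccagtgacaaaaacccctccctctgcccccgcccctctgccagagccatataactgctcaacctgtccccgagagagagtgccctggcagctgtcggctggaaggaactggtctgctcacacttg
CLDN2, chrX:106899914-106900213, plus strand: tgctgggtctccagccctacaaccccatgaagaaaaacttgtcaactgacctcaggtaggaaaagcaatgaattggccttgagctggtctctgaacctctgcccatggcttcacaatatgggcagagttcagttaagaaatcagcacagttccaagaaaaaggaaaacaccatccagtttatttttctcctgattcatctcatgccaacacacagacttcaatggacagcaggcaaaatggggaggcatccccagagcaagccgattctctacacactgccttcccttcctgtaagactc

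The CLDN7 window shown holds 5 such matches, beginning at -174, -135, -20, -9 and 6 from the start site, the most of any window of these genes. The other CLDN7 window, the CLDN4 window and both CLDN2 windows hold 0. Among all 35116 RefSeq promoter windows of the same length, 20.6% hold at least 1 match on either strand and 0.094% hold 5 or more. Of the 9 genes, 8 had entries, with 15 windows in all, and the match also occurs in windows of CLDN3, OCLN, TJP1 and TJP3, with 1 or 2 each. The GC box GGGCGG, which SP1 binds, was searched on both strands and did not overlap the E-box. It has 6 matches in the CLDN3 window, 2 each in the CLDN1 window and the CLDN7 window shown, and 1 in that of CLDN4. The other CLDN7 window and both of CLDN2 hold 0. Of all windows, 45.0% hold at least 1 and 5.14% hold 5 or more. CpG dinucleotides number 31 in the CLDN1 window, 30 in the CLDN7 window shown and 10 in the other, 24 for CLDN3, 5 for CLDN4 and 1 for the CLDN2 window shown, with a median of 14 over all windows. A match describes the letters only.

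The E-box repressors themselves were low and their groups overlapped. SNAI1 had 2.01, 1.94 and 2.02 FPKM with ITGB4 siRNA and 2.33, 1.48 and 1.98 FPKM with control siRNA. SNAI2 averaged 1.21 ± 0.064 FPKM with ITGB4 siRNA and 1.08 ± 0.169 FPKM with control siRNA, and ZEB1 averaged 1.75 ± 0.223 FPKM with ITGB4 siRNA and 1.53 ± 0.227 FPKM with control siRNA (SD, n = 3 each). TWIST1 was listed at 0 in every library. These 4 factors were chosen for naming after their values were seen. Of 14 listed transcription factors of junction genes, 8 were tested and limma called 0 (0 at an unadjusted p under 0.05 and 0 by limma-voom). The 2 most abundant were KLF5, at 33.0, 36.6 and 35.1 FPKM with ITGB4 siRNA and 35.4, 36.6 and 35.6 FPKM with control siRNA, and the intestinal factor CDX2, at 21.9, 19.9 and 19.4 FPKM with ITGB4 siRNA and 24.9, 18.9 and 22.7 FPKM with control siRNA.

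Over the 24 claudin genes in the table the summed level was 93.6 ± 2.24 FPKM with ITGB4 siRNA and 94.7 ± 4.27 FPKM with control siRNA (SD, n = 3 each). CLDN4 made up 29.2%, 27.3% and 27.3% of this sum with ITGB4 siRNA and 30.3%, 26.8% and 28.3% with control siRNA. CLDN7 took 19.3% to 21.4% with ITGB4 siRNA and 20.6% to 21.5% with control siRNA. The 5 claudins described here took 61.3% ± 1.62 with ITGB4 siRNA and 61.4% ± 2.02 with control siRNA (SD, n = 3 each), means that differed by less than either SD.

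Most of the rest of claudin RNA came from CLDN12, CLDN15 and CLDN11. CLDN12 had 13.97, 14.7 and 14.2 FPKM with ITGB4 siRNA, against 14.0, 17.4 and 16.1 FPKM with control siRNA (log2 fold change -0.14, limma adjusted p = 0.974). All 3 ITGB4 siRNA values lay below control replicates 2 and 3, and ITGB4 siRNA replicates 2 and 3 exceeded control replicate 1. CLDN15 averaged 10.8 ± 0.601 FPKM with ITGB4 siRNA and 10.3 ± 1.48 FPKM with control siRNA (SD, n = 3 each). CLDN11, best known from myelin and testis, averaged 8.43 ± 0.145 FPKM with ITGB4 siRNA and 7.88 ± 0.385 FPKM with control siRNA, without overlap (log2 fold change 0.09, limma adjusted p = 0.977), and was chosen for naming for that reason. The other 16 listed claudins had a mean under 1 FPKM, 6 of them with 0 in every library.

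**Figure D2:**
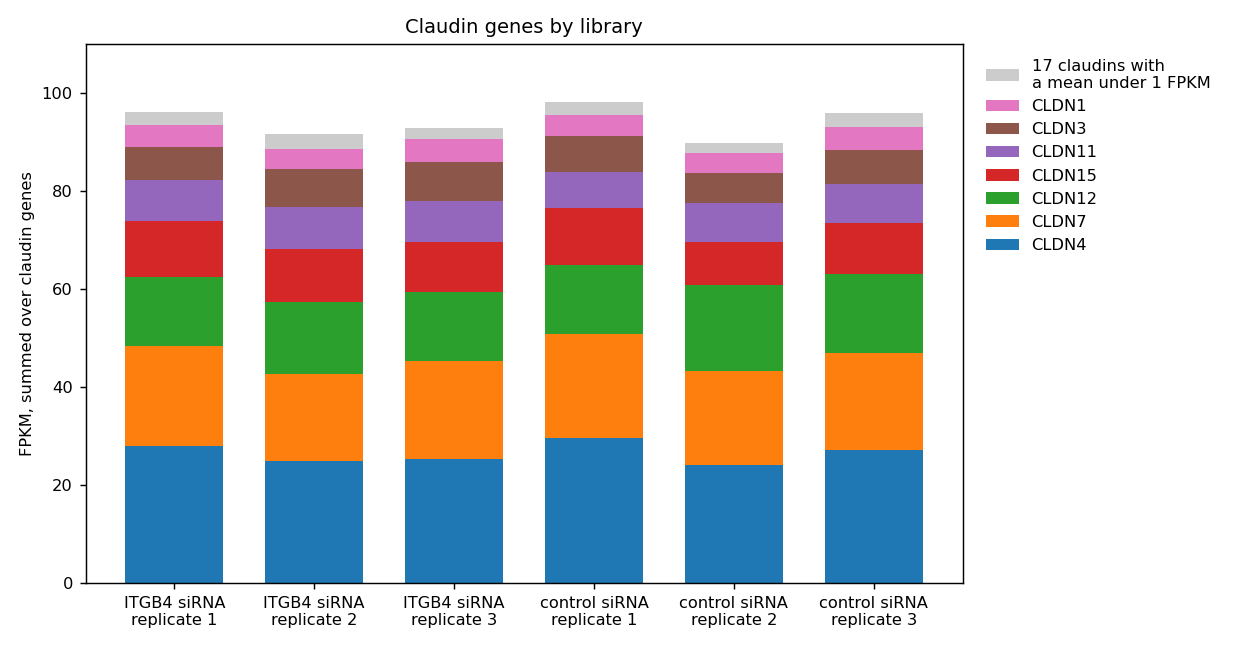
Stacked bars of FPKM, 1 bar per library with the ITGB4 siRNA libraries left of the control libraries, each colour a claudin gene with a mean of at least 1 FPKM and grey the sum of the others. The totals run from 89.9 to 98.2 FPKM and CLDN4 forms the largest block in all 6 libraries.

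Occludin is a MARVEL domain membrane protein of the strands that adds to their stability. OCLN (ENSG00000197822; GRCh38 chromosome 5, 69492292 to 69558104, plus strand) had 3.80, 4.10 and 4.20 FPKM with ITGB4 siRNA, against 3.78, 4.53 and 4.37 FPKM with control siRNA. Both replicates numbered 1 were low and the control replicates 2 and 3 were the highest. The means were 4.03 ± 0.208 FPKM with ITGB4 siRNA and 4.23 ± 0.396 FPKM with control siRNA (SD, n = 3 each), and limma estimated -0.05 for the log2 ratio, between -0.23 and 0.13 at 95% confidence (adjusted p = 0.998). A duplicated copy of part of the gene, the pseudogene OCLNP1, had 0 to 0.199 FPKM, and how reads that fit both were counted is not given in the sources used here. Among its MARVEL domain relatives, MARVELD2 (tricellulin, of the corners where cells meet) averaged 3.44 ± 0.139 FPKM with ITGB4 siRNA and 3.29 ± 0.319 FPKM with control siRNA (SD, n = 3 each). LSR, an angulin that recruits tricellulin, had 58.6, 52.8 and 49.5 FPKM with ITGB4 siRNA and 62.8, 47.5 and 52.4 FPKM with control siRNA. Of 5 listed MARVEL and angulin genes 4 were tested, and limma called 0 (0 at an unadjusted p under 0.05 and 0 by limma-voom).

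F11R (ENSG00000158769; GRCh38 chromosome 1, 160995211 to 161021348, minus strand) showed the lowest log2 fold change of the 8 genes over all 6 libraries. JAM-A, its product, is an immunoglobulin-like adhesion molecule that binds TJP1 and polarity proteins. F11R had 4.59, 5.59 and 4.98 FPKM with ITGB4 siRNA and 5.22, 6.37 and 5.65 FPKM with control siRNA. The groups overlapped, since ITGB4 siRNA replicate 2 exceeded control replicate 1. The mean differed by -12.0%. Limma estimated -0.16 for the log2 ratio (SE 0.0898), between -0.37 and 0.06 at 95% confidence. The limma p was 0.128 before adjustment and 0.974 after it, neither of them under 0.05. The log2 fold change was -0.10 without ITGB4 siRNA replicate 1 and -0.09 without control siRNA replicate 2, where that of CLDN4, at -0.12, was lower. The exact two-sided permutation test gave p = 0.2, where 3 against 3 libraries cannot go below 0.1. A gene annotated on the same strand over F11R, AL591806.3, had 0.0619 to 0.171 FPKM.

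CXADR, a relative of the JAM family that is the receptor of coxsackieviruses and adenoviruses, was lower in every ITGB4 siRNA library than in every control library. It had 9.52, 10.6 and 10.2 FPKM with ITGB4 siRNA, against 11.5, 14.2 and 12.8 FPKM with control siRNA. Limma estimated -0.31 for the log2 ratio (SE 0.082), between -0.50 and -0.11 at 95% confidence, with an unadjusted p under 0.05 and a limma adjusted p of 0.6 over all genes tested, so it failed the threshold. ESAM, another relative that also marks endothelium, had 1.11, 1.03 and 0.73 FPKM with ITGB4 siRNA and 1.09, 1.18 and 0.88 FPKM with control siRNA, with overlap. F11R made up 31.7% ± 1.19 of the summed FPKM of F11R, JAM2, JAM3 and CXADR with ITGB4 siRNA and 29.8% ± 0.42 with control siRNA (SD, n = 3 each). CXADR, the largest part of that sum, made up 63.5% with ITGB4 siRNA and 66.4% with control siRNA. The higher share of F11R is not a higher level, since its mean was 5.05 FPKM with ITGB4 siRNA and 5.74 FPKM with control siRNA. In RNA from many cells, fewer transcripts per cell and fewer cells with the transcript cannot be told apart.

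TJP1 (ENSG00000104067; GRCh38 chromosome 15, 29699367 to 29968865, minus strand) encodes ZO-1, the scaffold that binds claudins, occludin and JAM-A and links them to actin. It had 19.9, 20.9 and 20.9 FPKM with ITGB4 siRNA, against 19.7, 23.1 and 21.4 FPKM with control siRNA. All 3 ITGB4 siRNA values lay within the control range. With 3098 to 3849 reads per library it was the most deeply read of the 9 genes, and its log2 fold change of -0.05 had the narrowest 95% interval, -0.20 to 0.10 (limma adjusted p = 0.998). The pseudogene HMGN2P5 covers 273 bases on the opposite strand within TJP1 and had 6.67 to 12.0 FPKM over the 6 libraries.

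TJP3 (ENSG00000105289; GRCh38 chromosome 19, 3708109 to 3750813, plus strand), the ZO-3 gene, is found in epithelia and was far lower. It had 2.23, 1.49 and 1.39 FPKM with ITGB4 siRNA and 1.81, 1.39 and 1.43 FPKM with control siRNA. ITGB4 siRNA replicate 1 stood above the other 5 libraries, and the log2 fold change was 0.08 with it and -0.06 without it. The 95% interval of -0.26 to 0.41 was the widest of the 8 genes, at 87 to 130 reads per library, for which counting gives an SD of 9.93%.

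Ordered by level over the 6 libraries, CLDN4 (24.1 to 29.7 FPKM) stood above TJP1 (19.7 to 23.1) and CLDN7 (17.7 to 21.1), whose ranges overlapped each other. CLDN3 (5.99 to 7.96), F11R (4.59 to 6.37), CLDN1 (3.93 to 4.70) and OCLN (3.78 to 4.53) followed, each overlapping the next. TJP3 (1.39 to 2.23) and CLDN2 came last, both apart from their neighbours. FPKM are per length, and the lengths the authors used run from 1274 bases for CLDN3 to 11265 for TJP1.

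The intervals give the range of changes compatible with these libraries. The ends of the intervals are not the smallest changes that could have been detected. Over the 8 tested genes the limma intervals reached from 0.775-fold, for F11R, to 1.33-fold, for TJP3, on the log2(FPKM + 1) scale. That scale understates changes of low genes, and limma-voom intervals on the recovered reads reached from 0.762-fold to 1.43-fold for the same genes.

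**Figure D3:**
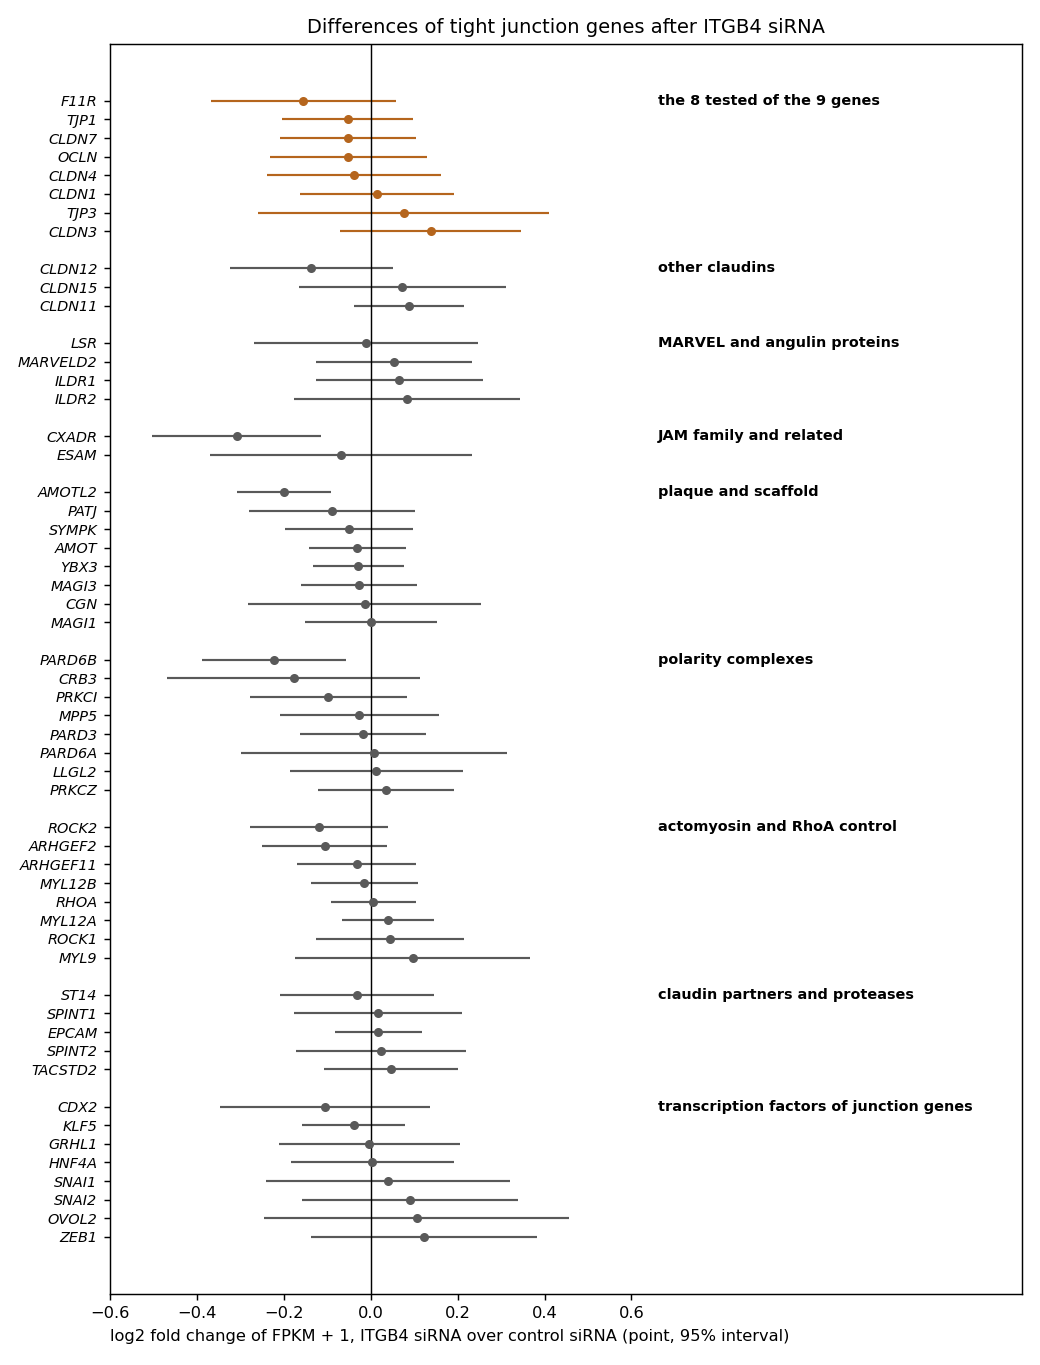
Log2 fold change of FPKM + 1, ITGB4 siRNA over control siRNA, with 95% limma intervals, for the 8 tested of the 9 genes in brown and 46 other tested junction genes in grey, grouped by list. Intervals of all 8 cross 0, and those of CXADR, AMOTL2 and PARD6B lie below it without passing adjustment.

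Other genes of the junction were read from 8 lists with 81 genes in the table, of which 46 were tested. Limma called 0 of them, higher or lower, and limma-voom called 0. At an unadjusted p under 0.05, 0 were higher and 3 lower (CXADR, AMOTL2 and PARD6B), or 3 of 46, beside 5.83% of all genes tested in either direction and 2.92% lower. The median log2 fold change of the 46 was -0.01, with 22 above 0 and 24 below.

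Among 8 tested plaque and scaffold genes, AMOTL2, a motin that binds actin and YAP, had 20.2, 19.96 and 20.3 FPKM with ITGB4 siRNA, against 23.8, 23.8 and 22.3 FPKM with control siRNA. The groups did not overlap, and the log2 fold change was -0.20 (SE 0.0456, limma adjusted p = 0.495). YBX3, a Y-box protein that binds the SH3 domain of ZO-1, was at 59.5, 63.2 and 60.1 FPKM with ITGB4 siRNA and 63.9, 60.3 and 62.4 FPKM with control siRNA.

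Of the 8 tested polarity genes, PARD6B, a PAR6 adaptor of the complex that places tight junctions, had 6.06, 6.40 and 6.98 FPKM with ITGB4 siRNA, against 7.24, 8.21 and 7.75 FPKM with control siRNA. These groups did not overlap either, and the log2 fold change was -0.22 (SE 0.0697, limma adjusted p = 0.729). Its kinase partner PRKCI had a log2 fold change of -0.10 and LLGL2, which opposes that complex, 0.01, both with overlapping groups.

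Of 8 tested genes of actomyosin and its control and 5 tested claudin partners and proteases, limma called 0 (0 at an unadjusted p under 0.05 and 0 by limma-voom). The log2 fold changes of the contractile genes ran from -0.12 to 0.10, with 4 above 0 and 4 below, and those of the partners and proteases from -0.03 to 0.05. RHOA, the GTPase that drives the actomyosin ring, was at 144.1, 150.5 and 151.8 FPKM with ITGB4 siRNA and 144.1, 152.2 and 148.2 FPKM with control siRNA, and the myosin light chain MYL12B had a log2 fold change of -0.01. ST14, the matriptase gene, whose protease acts on EPCAM, had a log2 fold change of -0.03 at 63.4 to 67.7 FPKM with ITGB4 siRNA and 60.7 to 74.1 FPKM with control siRNA.

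Replicates 1 and 2 of a group were compared in each group. CLDN1, CLDN4, CLDN7 and TJP3 were higher in replicate 1 than in replicate 2 in both groups, and OCLN, TJP1 and F11R were lower in replicate 1 than in replicate 2 in both. CLDN3 went opposite ways. This makes 7 of 8 genes with the same side in both groups, or 87.5%, beside 67.4% of all genes tested. For replicate 3 the deviations from the group mean had opposite signs in the 2 groups for CLDN4 and CLDN7. They had the same sign in both groups for CLDN1, CLDN3, OCLN, TJP1, TJP3 and F11R. The share over all genes was not computed for replicate 3. The labels do not say that a number marks a shared batch or day.

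**Figure D4:**
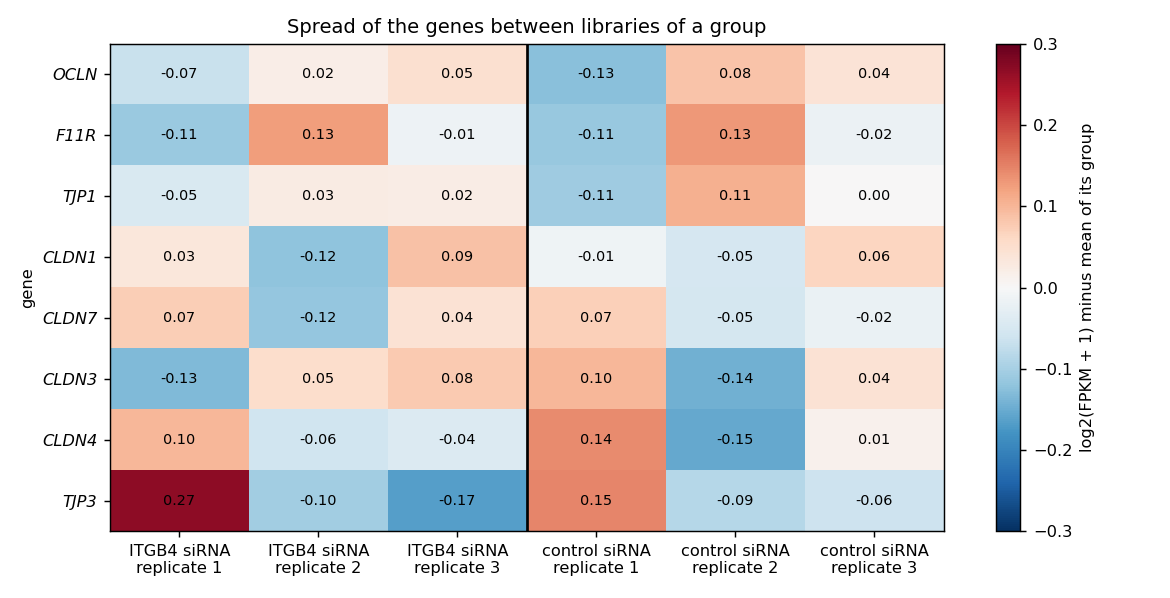
Log2(FPKM + 1) of the 8 tested genes in each library minus the mean of its group, ITGB4 siRNA libraries left and control libraries right of the line, red above and blue below the mean. Replicate 1 is below and replicate 2 above the mean in both groups for OCLN, F11R and TJP1, and the reverse holds for CLDN4, CLDN7 and TJP3.

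Among the genes whose levels moved most like CLDN4 over the 6 libraries were PLEC and RFXANK, with root mean square differences of 0.0143 and 0.0164 log2 units from it after centring, where CLDN4 itself varied by 0.101. For F11R they were TMEM47 (0.0208), PUM2 (0.0327) and BACH1 (0.0347), where F11R varied by 0.126. TMEM47 had 26.4, 29.97 and 28.2 FPKM with ITGB4 siRNA, against 29.1, 34.99 and 31.2 FPKM with control siRNA. These genes were picked for their likeness over these 6 libraries, so that a shared order of the libraries is part of the choice.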

How the data were processed

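RNA of 6 SW480 libraries was captured on poly-T beads, per the labels' protocols. The deposited values are FPKM per gene, computed by the authors on GRCh38 using a gene length that the file lists. Their deposited group means equal the mean of 3 libraries within 6.67e-07 FPKM. DESeq2 and edgeR appear in the submitters' processing notes with no stated role, and the aligner and counter are not given in the sources used here. FPKM times length, divided by the value of 1 read, was whole in 100% of values (tolerance 0.01). This gave 13715266 to 15496274 reads per library, summed over the genes in the table.

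Sample titles gave the groups. Genes averaging at least 1 FPKM were fitted as log2(FPKM + 1) with limma 3.58.1 (trend, two-sided) in R 4.3.3, adjusted by Benjamini-Hochberg over 12871 genes, and called at an adjusted p under 0.05. The limma p-values set the difference between groups against the spread between libraries of a group, and cover these libraries only. Exact permutation tests were two-sided. The fit was tested on simulated data. Alternatives were other filters, a pseudocount of 0.1, rescaling, TPM, robust moderation, limma-voom, a replicate block and leaving out each library. Motifs were searched in RefSeq windows with Python 3.11.15.

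The genes and lists were chosen with earlier results of these data known. Named were the 9 genes, ITGB4, list genes with an unadjusted p under 0.05, and the 2 most abundant tested genes per list. For CLDN4, the most abundant gene, and F11R, with the smallest p, the 3 most similar protein-coding genes of at least 5 FPKM were chosen too. Some genes these rules select are not reported here. Polarity genes include PALS1, which the table lists as MPP5.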

Additional observations from a re-analysis of the deposited data

How the results depend on the processing

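In every alternative run 0 of the tested members of the 9 genes and 0 of the other tested junction genes were called. The tested members were 8 in most runs, 9 with no low-value filter and 5 with a mean of at least 5 FPKM. The count over all genes was 0 with no low-value filter (1356 at an unadjusted p under 0.05), 26 with limma-voom, and 0 to 7 when leaving out 1 library, and the cause was not tested. With the replicate block it was 0 (1064 at an unadjusted p under 0.05), ITGB4 had an adjusted p of 0.0564, and F11R alone of the 8 had an unadjusted p under 0.05 (0.0239, adjusted p = 0.549, log2 fold change -0.16). It is unclear if equal numbers mark paired libraries. Deviations of same-numbered libraries correlated across genes at 0.173, 0.102 and -0.01. Those of differently numbered libraries correlated at -0.174 to 0.0862. Leaving out 1 library turned the sign of some uncalled log2 fold changes. They ran from -0.0289 to 0.0754 for CLDN1, -0.116 to 0.0308 for CLDN4, -0.0891 to 0.00684 for CLDN7, -0.0584 to 0.159 for TJP3, -0.0296 to 0.162 for CLDN15, -0.00221 to 0.0435 for EPCAM, -0.13 to 0.0195 for ESAM, -0.0672 to 0.0908 for LLGL2, -0.0993 to 0.0984 for LSR, -0.0387 to 0.0269 for MYL12B, -0.0135 to 0.029 for RHOA and -0.0974 to 0.0442 for ST14. Over all alternatives, 326 of 345 comparisons of named junction genes kept direction and side of the threshold, and the 19 others were turned signs on leaving out 1 library. Depth limits CLDN2, with at most 4 reads per library.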

Other observations

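Around CLDN3 and CLDN4 on chromosome 7, 5 other genes within 100000 bases had a mean of at least 1 FPKM. BUD23, a methyltransferase of ribosomal RNA, and ABHD11 had log2 fold changes of -0.02 and -0.06. STX1A, a syntaxin of vesicle fusion, had 2.09, 1.97 and 1.95 FPKM with ITGB4 siRNA, against 2.47, 2.52 and 2.54 FPKM with control siRNA, without overlap. Its log2 fold change of -0.23 did not pass (limma adjusted p = 0.694). DNAJC30 had 2.96, 3.35 and 3.20 FPKM with ITGB4 siRNA, against 2.86, 2.44 and 2.80 FPKM with control siRNA, also without overlap. Its log2 fold change of 0.17 did not pass either (limma adjusted p = 0.88). METTL27 had a log2 fold change of 0.22 with overlapping groups. These genes were chosen by position, and they differed in sign from each other.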
